A study of Caenorhabditis elegans with 12 samples.

Results

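The genes described here act in collagen maturation, and all 10 were found by symbol among the 23515 genes of the deposited table. They are the prolyl 4-hydroxylase genes dpy-18, phy-2 and phy-3, the disulfide isomerase gene pdi-2, the lysyl hydroxylase gene let-268, the procollagen protease genes bli-4 and dpy-31, and the oxidative crosslinking genes bli-3, mlt-7 and tsp-15. Poly(A) RNA was sequenced from whole L3 larvae of Caenorhabditis elegans, raised from harvested embryos on solid medium with an E. coli food source at 15 °C. The wild type was strain N2, and the mutants were strain RW364 with genotype unc-120(st364) and strain XA8001 with genotype fhod-1(tm2363). They are called the unc-120 mutant and the fhod-1 mutant below and carry their full genotype in the plots. UNC-120 is the worm serum response factor and FHOD-1 is a formin, an assembler of actin filaments, and the study concerns how they act in striated muscle development. Each of the 3 groups had 4 libraries, and the source-name label attaches the mutants' strain names the other way round. The labels do not say whether the libraries of a group came from separate cultures, so the p-values measure the spread between these libraries, which may be technical. They also give no number of animals and no backcrossing history.

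The worm cuticle and the basement membranes are built from collagens, which are modified before they leave the cell. In the endoplasmic reticulum prolyl 4-hydroxylase hydroxylates prolines, which stabilizes the triple helix. The worm enzyme is assembled from the catalytic subunits DPY-18 and PHY-2 together with PDI-2, the protein disulfide isomerase that serves as its other subunit. LET-268, the procollagen lysyl hydroxylase, acts on type IV collagen of basement membranes. The subtilisin-like convertase BLI-4 and the astacin metalloprotease DPY-31 trim procollagens, the latter at the C-terminal end of the cuticle collagen SQT-3. Outside the cell the dual oxidase BLI-3 supplies hydrogen peroxide, the heme peroxidase MLT-7 takes part in tyrosine crosslinking, and the tetraspanin TSP-15 works with BLI-3. Mutants of several of these genes are short, blistered or defective in molting, and new cuticle is made at every larval molt.

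Values are in the deposited unit, which was taken to be scaled for gene length and proportional to TPM, the transcript share of a library. All 12 libraries had the same total of 638200. In single-transcript genes, 15.3% to 19.6% of the low values multiplied by exonic length lay within 0.01 of a whole multiple of 1 step per library. A step fixed beforehand would give 2% by chance. The step used was the most common product in these same genes, so part of that share is built in. Dividing by that step gave an estimate of about 19200000 to 28000000 reads per library, which rests on lengths from a later annotation. By the same step the tested members had from 233 estimated reads, for tsp-15 in its lowest library, to 84598, for pdi-2 in its highest. Genes of the epidermis, which makes cuticle, were present in every library (dpy-7 at 182 to 352, rol-6 at 354 to 826), and those of the adult were near 0 (vit-2 at most 0.825, col-19 at most 0.322). Of 3 body-wall muscle genes, all had their lowest mean in the unc-120 mutant: unc-54 had means of 397 in wild type, 189 there and 319.8 in the fhod-1 mutant, myo-3 of 70.6, 40.1 and 79.9, and unc-15 of 219, 134 and 217. The intestinal gene asp-1 had means of 2308, 1529 and 2120 in the same order. For elt-2 they were 18.8, 14.3 and 16.0, and for ges-1 11.8, 9.81 and 10.3. Of the neuronal genes, rab-3 had 11.7, 17.04 and 17.07, unc-64 14.8, 17.1 and 17.1, and snb-1 147, 170 and 177. Of the pharyngeal genes, myo-2 had 33.05, 29.9 and 42.7, myo-1 28.0, 27.9 and 40.9, and tnc-2 64.2, 63.9 and 84.3. Germline genes were lowest in the fhod-1 mutant: pgl-1 had 19.6, 17.6 and 15.0, glh-1 36.4, 32.9 and 26.6, and mex-5 1.48, 1.27 and 1.16. The part of tissue makeup in the results was not tested. The libraries differ in how level relates to gene length, and unc-120 mutant replicate 2 lies farthest out on it, with a slope of -0.26 against -0.13 to 0.15 in the other 11. Values corrected for length by loess are therefore given beside the deposited ones. Of the mutated genes, unc-120 was at 25.6 to 43.1 in the unc-120 mutant and 9.63 to 15.9 in wild type, and fhod-1 was at 3.21 to 6.16 in the fhod-1 mutant and 4.00 to 6.24 in wild type, so the level of fhod-1 does not separate these groups. RNA of whole larvae cannot tell fewer cells of a type from less RNA per cell.

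The 10 genes spanned a wide range of levels with pdi-2 at the top and phy-3 at the bottom. The gene pdi-2 (WBGene00003963, chromosome X, 4524155 to 4526536) was by far the most abundant, with a mean of 819 over the 12 libraries and a level above 99.4% of all genes. It was above every other member in 12 of 12 libraries, and its lowest library (474) lay above the highest value of dpy-18 (46.5). The hydroxylase subunit genes followed, dpy-18 (WBGene00001077, chromosome III, 11372886 to 11377980) at a mean of 34.7 and phy-2 (WBGene00004025, chromosome IV, 12211098 to 12215987) at 31.7. They did not separate from each other, since dpy-18 was the higher in 7 of 12 libraries. Against the proteases, phy-2 was above dpy-31 in 12 of 12 libraries, and its lowest value (22.5) was above the highest of bli-4 (21.7).

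The proteases dpy-31 (WBGene00006592, chromosome III, 7202661 to 7207664) and bli-4 (WBGene00000254, chromosome I, 6342231 to 6356678) had means of 18.5 and 16.0, with dpy-31 the higher in 11 of 12 libraries. The peroxidase gene mlt-7 (WBGene00022743, chromosome II, 4392800 to 4404850) came next at 11.9. The remaining tested members could not be ordered: let-268 (WBGene00002497, chromosome II, 10033309 to 10039980) had a mean of 8.20, tsp-15 (WBGene00006641, chromosome I, 8928748 to 8931089) of 7.85 and bli-3 (WBGene00000253, chromosome I, 146486 to 154850) of 7.05. Of these, let-268 was above tsp-15 in 7 of 12 libraries and tsp-15 above bli-3 in 7 of 12. Positions are 1-based on WBcel235, from the deposited table with 1 subtracted from its stop.

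The third hydroxylase gene, phy-3 (WBGene00004026, chromosome V, 16833316 to 16839141), was next to silent. Its level was 0 to 0.0271 in the 12 libraries, which is under 1 estimated read in each (0.938 at most). Group means were 0.0150 in wild type, 0.00360 in the unc-120 mutant and 0.0125 in the fhod-1 mutant, too few reads for any comparison, and phy-3 is the 1 member of 10 left out of the tests. A further gene of the family, phy-4, was at 0.0940 to 0.457. On the opposite strand phy-3 overlaps the troponin gene tni-3, at a mean of 22.6.

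**Figure D1:**
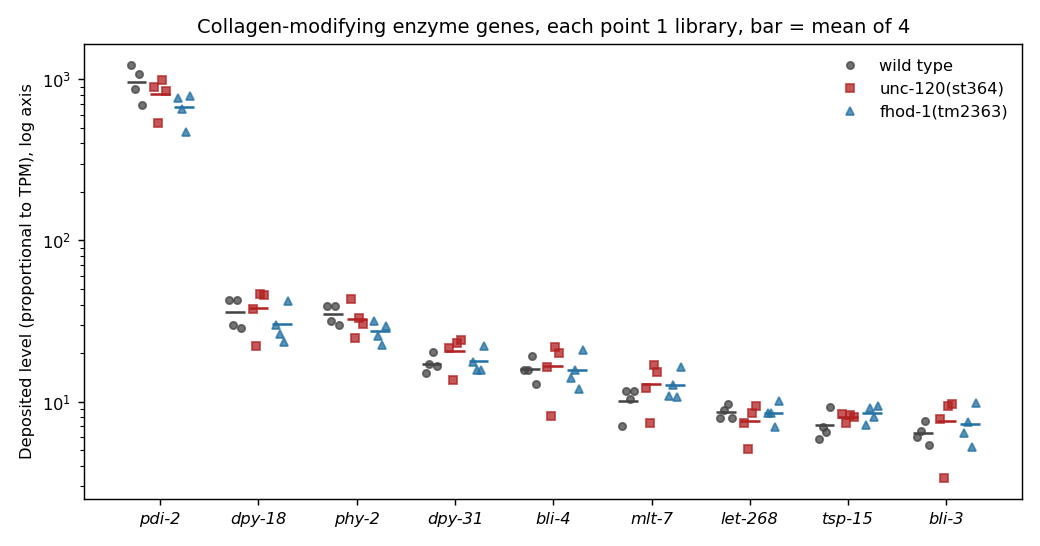
Deposited level (taken as proportional to TPM, log axis) of the 9 tested genes, each point 1 library and each bar the mean of the 4 libraries of a group. The gene pdi-2 stands at 474 to 1234, far above the others, and within every gene the points of the 3 groups overlap.

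No member was called in either mutant by the test used on deposited values, limma on log2(level + 1) with Benjamini-Hochberg adjustment over all 12831 genes tested, called at an adjusted p under 0.05. In the unc-120 mutant against wild type, 0 of 9 members were called, where 1.2% of all genes tested were. In the fhod-1 mutant against wild type, 0 of 9 were called against 5.23% of all genes tested. Between the mutants, 0 of 9 were called against 1.97%. At an unadjusted p under 0.05 limma gave 0, 1 and 0 members, against 8.2%, 22.5% and 12.8% of all genes tested, the 1 being pdi-2 in the fhod-1 mutant. Nor were the 4 libraries of 1 group wholly above or below those of another for any tested member, which happened for 4.21%, 15.5% and 8.24% of all genes tested in the same 3 comparisons. On length-corrected values limma called 0, 1 (pdi-2) and 0 of 9 members, against 2.7%, 17.5% and 5.16% of all genes. Groups did not overlap there for 1, 2 and 0 members, against 7.77%, 23.9% and 15.4%. None of these counts sets the members apart from other genes. Small differences could also pass unseen, and the intervals given below show how large they could be.

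**Figure D2:**
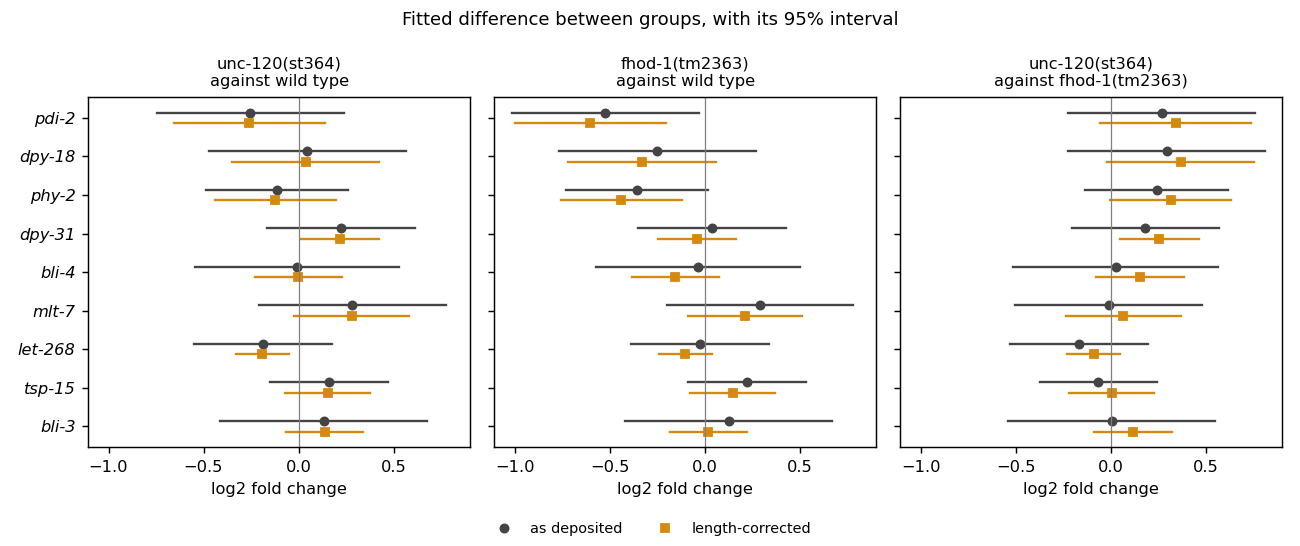
Fitted log2 fold change of each tested gene in the 3 comparisons, with its 95% interval from limma, for values as deposited (circles) and corrected for gene length (squares). In the fhod-1 mutant against wild type the intervals of pdi-2 lie below 0 with both kinds of value, and that of phy-2 only after correction. In the unc-120 mutant against wild type, corrected intervals exclude 0 for let-268 (-0.33 to -0.05) and dpy-31 (0.01 to 0.42). Between the mutants the corrected interval of dpy-31 also does (0.05 to 0.46). Of all these, limma called only pdi-2, after correction.

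Of the hydroxylase complex, pdi-2, phy-2 and dpy-18 had their lowest group means in the fhod-1 mutant. For pdi-2 the wild-type libraries, in the order of replicates 1 to 4, were at 1234, 875, 1078 and 691, with a mean ± SD of 969.8 ± 237 (n = 4). The fhod-1 mutant libraries were at 768, 656, 474 and 791, with a mean of 672 ± 145 (n = 4). The groups overlap because wild type replicate 4 lies below the highest 2 fhod-1 mutant libraries. The log2 fold change was -0.52 (SE 0.23, 95% interval -1.02 to -0.03), a level 0.696 times that of wild type, which limma did not call (adjusted p = 0.197, two-sided exact permutation p = 0.114). Without fhod-1 mutant replicate 3 it was -0.36, and without wild type replicate 1 it was -0.40. After length correction the log2 fold change was -0.60 (SE 0.18) and was called (limma adjusted p = 0.0415, exact permutation p = 0.0571), as were 8.95% of all genes in that direction. The corrected groups still overlapped. The correction also recentred the libraries, and the median log2 fold change of all genes tested in this comparison moved from 0.07 to -0.01. That shift of -0.08 bears on every corrected fold change given for the fhod-1 mutant against wild type. That call was lost in 8 of 12 fits that each left out 1 library, namely wild type replicate 1, 2 or 3, unc-120 mutant replicate 3 or 4, or fhod-1 mutant replicate 2, 3 or 4, with limma adjusted p values of 0.0171 to 0.114 over the 12.

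In the unc-120 mutant pdi-2 was at 890.5, 536, 989 and 844, with a mean of 815 ± 196 (n = 4). Replicate 2 was the low library, and the other 3 lay within the wild-type range. The log2 fold change against wild type was -0.25 (SE 0.23, interval -0.75 to 0.24, limma adjusted p = 0.986), and -0.06 without replicate 2. Its fitted log2 level was higher by 0.27 in the unc-120 than in the fhod-1 mutant (SE 0.23, limma adjusted p = 0.717).

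The catalytic subunit gene phy-2 was at 39.4, 31.7, 39.1 and 30.1 in wild type, a mean of 35.1 ± 4.88 (n = 4). In the fhod-1 mutant it was at 31.7, 25.5, 22.5 and 29.3, a mean of 27.2 ± 4.04 (n = 4). Of the mutant libraries, replicate 1 alone reached the wild-type range. The log2 fold change of -0.35 (SE 0.18, interval -0.73 to 0.02) was not called (limma adjusted p = 0.248, exact permutation p = 0.0571). On length-corrected values all 4 fhod-1 mutant libraries were below all 4 of wild type, as was the case for 13% of all genes, and the difference of -0.44 (SE 0.15) again missed the threshold (limma adjusted p = 0.0565, exact permutation p = 0.0286, the smallest that 4 against 4 can give). It was called in 3 of 12 fits that each left out 1 library, namely wild type replicate 4, unc-120 mutant replicate 1 or fhod-1 mutant replicate 1, with limma adjusted p values of 0.0331 to 0.152 over the 12. In the unc-120 mutant phy-2 was at 43.0, 24.7, 33.0 and 30.3, a mean of 32.7 ± 7.65 (n = 4), with the highest library of all 12 in replicate 1. Its log2 fold change against wild type there was -0.11 (SE 0.18, limma adjusted p = 0.9998).

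Its partner dpy-18, whose loss gives dumpy animals, was at 42.6, 29.9, 42.6 and 28.7 in wild type, a mean of 35.95 ± 7.68 (n = 4). It was at 30.0, 26.1, 23.3 and 41.8 in the fhod-1 mutant, a mean of 30.3 ± 8.17 (n = 4), so that replicate 4 was within the upper wild-type range and 2 libraries were below the wild-type low. The log2 fold change was -0.25 (SE 0.24, interval -0.77 to 0.27, limma adjusted p = 0.586). In the unc-120 mutant it was at 37.8, 22.0, 46.5 and 45.6, a mean of 38.0 ± 11.3 (n = 4), which holds both the lowest and the highest of the 12 libraries. There the log2 fold change was 0.05 (SE 0.24, interval -0.47 to 0.56, limma adjusted p = 0.9998).

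The basement membrane enzyme gene let-268 was the steadiest member once gene length was taken out. As deposited it was at 7.86, 8.89, 9.65 and 7.92 in wild type, at 7.38, 5.04, 8.44 and 9.34 in the unc-120 mutant and at 8.46, 8.46, 6.94 and 10.02 in the fhod-1 mutant. The log2 fold changes against wild type were -0.19 (SE 0.17, limma adjusted p = 0.986) and -0.02 (SE 0.17, limma adjusted p = 0.953). After length correction its SD within groups fell from 0.24 to 0.05 on the log2 scale, smaller than in all but 0.149% of the genes. The corrected levels were 3.28 ± 0.04 in wild type, 3.09 ± 0.04 in the unc-120 mutant and 3.18 ± 0.06 in the fhod-1 mutant (log2, n = 4 each). In both mutants all 4 corrected libraries lay below all 4 of wild type, which was so for 4.06% of all genes in the former mutant and 13% in the latter. Neither difference was called, at -0.19 (SE 0.06, limma adjusted p = 0.163, exact permutation p = 0.0286) and -0.10 (SE 0.06, limma adjusted p = 0.274, exact permutation p = 0.0286). Both comparisons use the same wild-type libraries. The type IV collagen genes emb-9 and let-2, whose products LET-268 modifies, were at means of 104 and 124, and limma called neither in these comparisons; they were picked here for that role, after their values were seen.

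The procollagen proteases did not separate the groups. The convertase gene bli-4 was at 12.9 to 19.04 in wild type, 8.17 to 21.7 in the unc-120 mutant and 11.99 to 20.8 in the fhod-1 mutant, with means of 15.9 ± 2.51, 16.6 ± 6.01 and 15.6 ± 3.77 (n = 4 each). Its log2 fold changes against wild type were -0.01 (interval -0.55 to 0.53) and -0.03 (interval -0.57 to 0.50), which as levels relative to wild type are 0.685 to 1.44 and 0.673 to 1.42. For dpy-31 the means were 17.2 ± 2.23 in wild type, 20.6 ± 4.76 in the unc-120 mutant and 17.7 ± 2.99 in the fhod-1 mutant (n = 4 each). In the unc-120 mutant 3 libraries, at 21.6 to 24.13, were above the wild-type high of 20.3, and replicate 2, at 13.6, was below the wild-type low of 14.9. The log2 fold change there was 0.22 (SE 0.18, interval -0.17 to 0.61, limma adjusted p = 0.957). Without replicate 2 it was 0.40 (limma adjusted p = 0.309). After length correction it was 0.22 (SE 0.10, interval 0.01 to 0.42, limma adjusted p = 0.309, exact permutation p = 0.0571). Corrected dpy-31 was also higher in the unc-120 than in the fhod-1 mutant, by 0.26 (interval 0.05 to 0.46). That difference was not called (limma adjusted p = 0.138, exact permutation p = 0.0571), and the corrected groups overlapped in both comparisons. The cuticle collagen genes sqt-3 and dpy-17, which interact genetically with dpy-31, had means of 704 and 7.81 (sqt-3 was picked after its values were seen).

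The crosslinking genes had overlapping groups throughout. The oxidase gene bli-3 was at 6.06, 6.60, 7.59 and 5.38 in wild type, a mean of 6.41 ± 0.934 (n = 4). In the unc-120 mutant it was at 7.80, 3.34, 9.40 and 9.67, a mean of 7.55 ± 2.93 (n = 4), so that 3 libraries were above every wild-type library and 1 was the lowest of all. In the fhod-1 mutant it was at 6.34, 7.44, 5.22 and 9.83, a mean of 7.21 ± 1.97 (n = 4), with values on both sides of the wild type. The log2 fold changes were 0.13 (SE 0.25, limma adjusted p = 0.9998) and 0.13 (SE 0.25, limma adjusted p = 0.815). Without unc-120 mutant replicate 2 the former was 0.43 (SE 0.18, limma adjusted p = 0.371), and after length correction it was 0.14 (SE 0.09, interval -0.07 to 0.34). The paralog duox-2, whose reads may be partly shared with bli-3, was at 0.242 to 0.753.

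The peroxidase gene mlt-7 was at 7.09, 11.5, 10.3 and 11.6 in wild type, a mean of 10.1 ± 2.12 (n = 4). It was at 12.2, 7.35, 16.8 and 15.2 in the unc-120 mutant, a mean of 12.9 ± 4.15, and at 10.8, 12.6, 10.7 and 16.4 in the fhod-1 mutant, a mean of 12.6 ± 2.67 (n = 4 each). In each mutant the highest libraries exceeded the wild type and the lowest did not. The log2 fold changes were 0.28 (SE 0.23, interval -0.21 to 0.77) and 0.29 (SE 0.23, interval -0.20 to 0.78), neither called (limma adjusted p = 0.954 and 0.489). Without unc-120 mutant replicate 2 the log2 fold change in that mutant was 0.51 (limma adjusted p = 0.315). The tetraspanin gene tsp-15 had means of 7.13 ± 1.48 in wild type, 7.99 ± 0.463 in the unc-120 mutant and 8.43 ± 1.03 in the fhod-1 mutant (n = 4 each). Its wild-type libraries were at 5.89, 6.96, 6.43 and 9.26, those of the unc-120 mutant at 8.32, 7.32, 8.28 and 8.05, and those of the fhod-1 mutant at 7.18, 9.10, 8.02 and 9.44. Replicate 4 of wild type was thus among the highest, and the other 3 were below all 8 mutant libraries. Its log2 fold changes of 0.16 (interval -0.15 to 0.47) and 0.22 (interval -0.09 to 0.53) were not called either (limma adjusted p = 0.986 and 0.388). On the other strand tsp-15 overlaps madd-4 (mean 10.03) at its end, and dpy-31 lies within the span of exos-9 (mean 1.89). The end of bli-4 overlaps mut-2 (mean 3.42), also on the other strand. On the same strand, the noncoding gene K04F10.9 (mean 3.95) lies within bli-4 and C07A12.19 (mean 0.609) overlaps the start of pdi-2. Strand cannot separate the reads of these from those of the members. The kit marks strand, but whether the counting used it is not given in the sources used here.

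One library was low for most of these genes. In unc-120 mutant replicate 2 lay the lowest of the 12 values for 5 of the 9 tested members, and the members' median deviation from the 12-library mean was -0.58 on the log2 scale, against -0.23 for all genes tested. The highest values fell mostly to unc-120 mutant replicate 3, with 3 members, and fhod-1 mutant replicate 4, also with 3. These are libraries with slopes of 0.14 and 0.15 on gene length. For bli-3 and bli-4, which have exonic lengths of 5185 and 7570 bases, the SD within groups dropped by length correction from 0.42 to 0.12 and from 0.41 to 0.15 on the log2 scale. For dpy-18, pdi-2, phy-2 and mlt-7 it stayed higher, at 0.28, 0.28, 0.22 and 0.21 after correction, where the median gene had 0.17. After correction the members' median deviation in unc-120 mutant replicate 2 was -0.09. The lowest was then in fhod-1 mutant replicate 2, at -0.21, followed by wild type replicate 2, at -0.13.

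**Figure D3:**
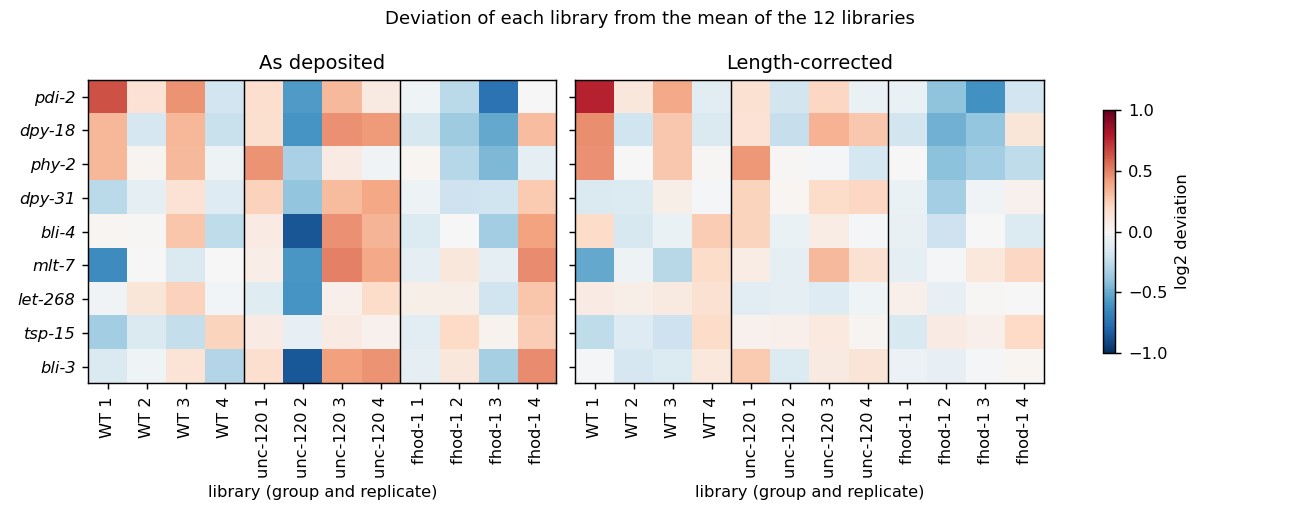
Deviation of each of the 12 libraries from their mean, on the log2 scale, for the 9 tested genes, as deposited (left) and after length correction (right). The low column of unc-120 mutant replicate 2 on the left, with a median of -0.58, mostly fades on the right, while pdi-2, dpy-18 and phy-2 keep high values in wild type replicate 1 and low ones in fhod-1 mutant replicates 2 and 3.

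Genes whose products work together were compared across the 12 libraries in 5 pairs, with permutation tests of 100000 resamples adjusted over the 5. The permutations treat the libraries as exchangeable, which the labels do not establish, and some same-numbered libraries deviated together. The p-values are against no correlation at all and do not test for a relation particular to partner genes. The transcripts of pdi-2 and each catalytic subunit gene were correlated. Between dpy-18 and pdi-2, Pearson's r was 0.850 (permutation p = 2.70e-04, adjusted 6.75e-04) and Spearman's rho was 0.832 (permutation p = 0.00128, adjusted 0.0032). Without the 2 libraries farthest from the median of dpy-18, r was 0.713 (permutation p = 0.0229). Between phy-2 and pdi-2, r was 0.881 (permutation p = 2.10e-04, adjusted 6.75e-04) and rho was 0.923 (permutation p = 6.00e-05, adjusted 3.00e-04), and r was 0.941 without the 2 farthest libraries (permutation p = 8.00e-05). Deviations from the group means gave r of 0.892 and 0.834, and length-corrected values gave r of 0.804 (permutation p = 0.00111, adjusted 0.00277) and 0.857 (permutation p = 2.90e-04, adjusted 0.00145).

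The relation of the catalytic subunit genes dpy-18 and phy-2 with each other was weaker, with r = 0.710 (permutation p = 0.0107, adjusted 0.0133) and rho = 0.685 (permutation p = 0.0168, adjusted 0.0211). Without unc-120 mutant replicate 2 and fhod-1 mutant replicate 3, the libraries farthest from the median of dpy-18, r was 0.484 (permutation p = 0.156). Leaving them out also narrows the range of dpy-18, so it cannot tell whether the relation rests on them. Deviations from the group means gave r of 0.686, and length-corrected values gave 0.622 (permutation p = 0.0322, adjusted 0.0537). For the crosslinking genes bli-3 and mlt-7, r was 0.819 (permutation p = 7.80e-04, adjusted 0.0013) and rho 0.769 (permutation p = 0.00499, adjusted 0.00832). It was 0.688 without the 2 farthest libraries (permutation p = 0.0239), and 0.499 after length correction (permutation p = 0.101, adjusted 0.126), so it did not hold there. For bli-3 and tsp-15, r was 0.289 (permutation p = 0.362, also after adjustment) and rho 0.371 (permutation p = 0.235, also after adjustment), and r was 0.112 without the 2 farthest libraries (permutation p = 0.756) and 0.444 after correction (permutation p = 0.148).

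Values this high were not particular to partner genes. Over all 36 pairs of tested members, described without a test, r as deposited ran from -0.47 to 0.970. It was 0.970 for bli-3 with bli-4, 0.879 for bli-3 with dpy-31 and 0.876 for bli-4 with either dpy-18 or let-268, and these were 0.702, 0.629, 0.432 and 0.154 after length correction. On corrected values phy-2 with pdi-2 (0.857) was followed by mlt-7 with tsp-15 (0.854) and then by dpy-18 with pdi-2 (0.804).

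**Figure D4:**
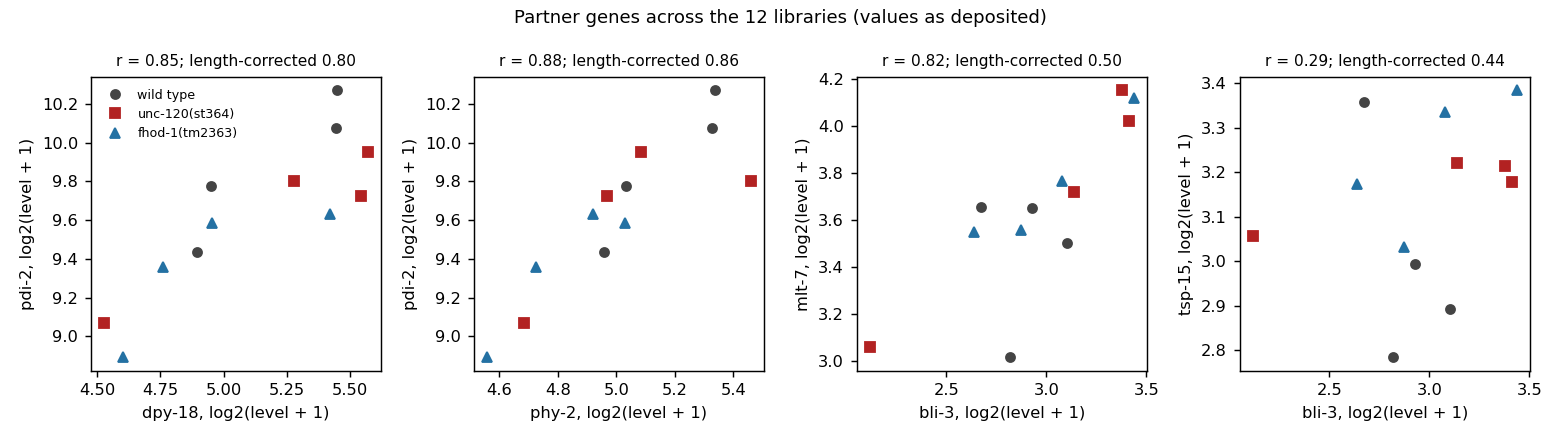
Log2(level + 1) of partner genes against each other, each point 1 of the 12 libraries, with Pearson's r as deposited and after length correction above each panel. The points of pdi-2 follow dpy-18 and phy-2 (r of 0.850 and 0.881), and those of tsp-15 do not line up with bli-3 (r of 0.289).

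Ratios within a library put the same genes on a common footing. The level of pdi-2 was 24.05 to 29.3 times that of dpy-18 in wild type, 18.5 to 24.3 times in the unc-120 mutant and 18.9 to 25.6 times in the fhod-1 mutant. The means were 26.9 ± 2.61, 21.9 ± 2.61 and 22.5 ± 3.37 (n = 4 each), and neither difference from wild type passed (exact permutation p = 0.0571 and 0.143, adjusted 0.857 and 0.971 over 15 ratio tests). The ratio of dpy-18 to phy-2 was near 1 in wild type, at 0.942 to 1.09. It reached 1.41 and 1.504 in unc-120 mutant replicates 3 and 4 and 1.43 in fhod-1 mutant replicate 4, without a difference between groups (exact permutation p = 0.486 and 0.6 against wild type).

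The other genes of collagen production were taken as lists, with 0 genes called in any list and comparison on deposited values by limma. Of all genes tested, 4.21%, 15.5% and 8.24% had groups without overlap in the unc-120 mutant, the fhod-1 mutant and between the mutants. After length correction limma called 2.7%, 17.5% and 5.16% in the same order. These shares stand beside every list gene named here and in the next paragraphs. Of the 12831 genes tested, 6909 were fitted higher and 5922 lower in the unc-120 mutant, and 7678 higher and 5153 lower in the fhod-1 mutant. Between the mutants, 5092 were fitted higher and 7739 lower in the unc-120 mutant. Genes of a list can vary together over the same libraries, so its direction counts are not counts of separate observations. Of 14 folding genes of the endoplasmic reticulum, all tested, 12 had a negative fitted change in the fhod-1 mutant and 12 in the unc-120 mutant, with medians of -0.22 and -0.14, where the medians of all genes tested were 0.07 and 0.02. The chaperone gene hsp-4, a marker of the unfolded protein response, was at 58.2 to 89.7 in the fhod-1 mutant and 91.2 to 134 in wild type, without overlap, and was not called (log2 fold change -0.58, SE 0.22, limma adjusted p = 0.131). After length correction hsp-4 was called in the fhod-1 mutant (-0.66, limma adjusted p = 0.00395) and in the unc-120 mutant (-0.54, limma adjusted p = 0.0257), and the isomerase gene pdi-6 in the fhod-1 mutant (-0.35, limma adjusted p = 0.0450). These are 2 of 14 folding genes in the fhod-1 mutant, where 17.5% of all genes were called, and 1 of 14 in the unc-120 mutant, where 2.7% were. All 6 tested genes of the list for the COPII coat of transport vesicles and collagen secretion had negative fitted changes in both mutants. The medians were -0.18 in the unc-120 mutant and -0.15 in the fhod-1 mutant. The chaperone gene fkb-5, a peptidyl-prolyl isomerase, was at 353 to 394 in the unc-120 mutant and 217 to 313 in the fhod-1 mutant, without overlap and without a call between the mutants (0.43, SE 0.15, limma adjusted p = 0.228). Both mutant comparisons share the wild-type libraries.

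Of the 8 listed oxidase and peroxidase genes, 4 were tested, with medians of 0.20 in both mutants. They include doxa-1, the maturation factor of BLI-3, at a mean of 7.74, and the peroxidase skpo-2 at 11.9, both named after their values were seen. Of the 9 other protease and inhibitor genes tested, 3 were fitted higher and 6 lower in the unc-120 mutant. The convertase gene egl-3, which processes neuropeptides, was at 73.3 to 136 in the fhod-1 mutant and 56.4 to 65.9 in wild type, without overlap, and was not called as deposited (0.65, SE 0.25, limma adjusted p = 0.146) but was after length correction (0.57, limma adjusted p = 0.0178).

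Among the substrates, of 17 cuticle collagen genes tested, 13 were fitted higher in the unc-120 mutant (median 0.19) and 12 lower in the fhod-1 mutant (median -0.25). In the direct comparison 15 of 17 were fitted higher in the unc-120 mutant, with a median of 0.23 where all genes tested had -0.06. The furrow collagen gene dpy-7 was at 277 to 352 in the unc-120 mutant and 182 to 241 in the fhod-1 mutant, without overlap (0.53, SE 0.15, limma adjusted p = 0.0952, and 0.0215 after length correction). Of the same list, dpy-14 and dpy-17 were low in the unc-120 mutant, at 1.88 to 2.75 against 3.67 to 7.40 in wild type for dpy-14 and 4.70 to 5.81 against 7.61 to 11.9 for dpy-17. Both were short of a call (-0.92 and -0.77, limma adjusted p = 0.105 and 0.110). The collagen genes bli-1 and bli-2, needed for adult cuticle, were at most at 0.0590 and 1.97 and were not tested.

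Of the 5 basement membrane and other collagen genes, 4 were fitted lower in the unc-120 mutant (median -0.35) and 2 in the fhod-1 mutant (median 0.02). The collagen gene mec-5, needed for touch sensation, was at 15.212 to 17.2 in the fhod-1 mutant and 13.3 to 15.208 in wild type. These ranges all but touch, and limma did not call it (0.21, SE 0.12, limma adjusted p = 0.337, and 0.13 with adjusted p = 0.254 after length correction). After length correction col-99 was called lower in the unc-120 mutant (-0.43, limma adjusted p = 0.0239). Of the molting genes and their regulators, whose levels vary over the molting cycle, 14 of 16 were fitted higher in the unc-120 mutant (median 0.11) and 14 of 16 lower in the fhod-1 mutant (median -0.07). Between the mutants 13 of 16 were fitted higher in the unc-120 mutant, with a median of 0.26 and 0 calls. The part of the molting phase in the differences given above was not tested.

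**Figure D5:**
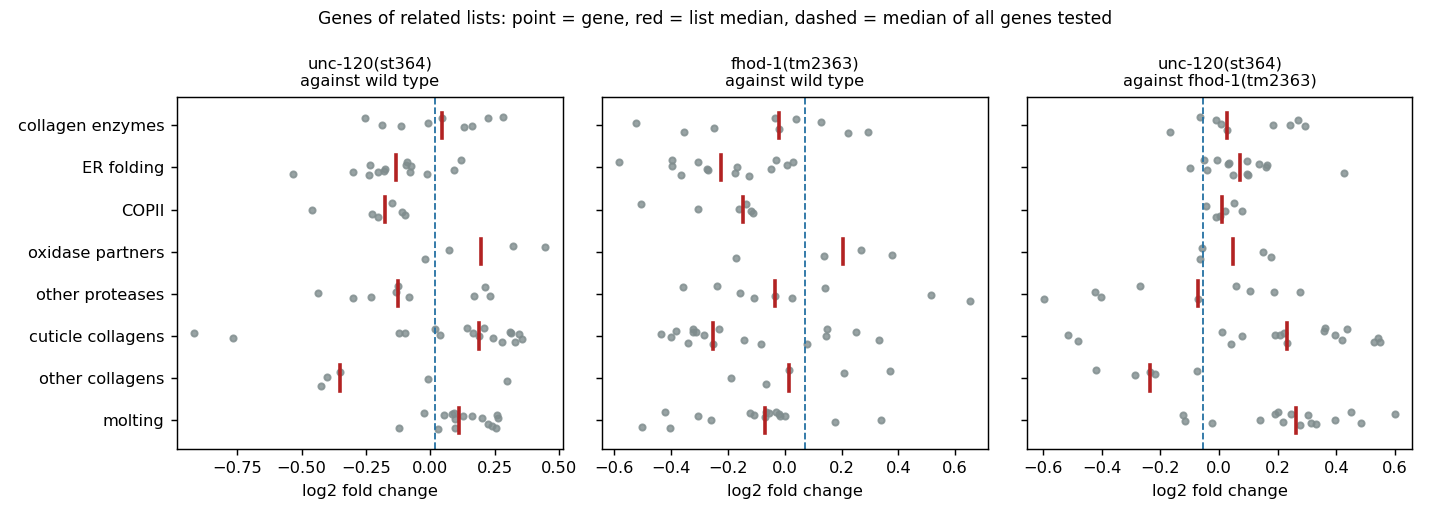
Log2 fold change of each tested gene of the lists in the 3 comparisons, with the list median in red and the median of all genes tested as a dashed line. The folding and COPII genes lie mostly left of the dashed line in both mutants, and the cuticle collagens lie mostly right of it in the unc-120 mutant and mostly left of it in the fhod-1 mutant.

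For a description of which genes varied most like each member, length-corrected values of genes with a mean of at least 10 were correlated with it over the 12 libraries, which share their depth and library effects. The closest to pdi-2 were tsn-1, cogc-4 and copb-1 (r of 0.974, 0.973 and 0.965), of which cogc-4 and copb-1 encode subunits of a Golgi tethering complex and of the COPI coat. The closest to phy-2 was dhs-6 (0.976) and to dpy-18 the proteasome gene rpt-1 (0.952). The closest to mlt-7 was the neuronal gene rab-3 (0.908), to dpy-31 spe-39 (0.926), to let-268 F41C3.5 (0.907), to tsp-15 sta-2 (0.873), to bli-4 ugt-22 (0.846) and to bli-3 the tyrosinase-like gene tyr-6 (0.839).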

How the data were processed

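The values were deposited by the authors as normalized counts, 1 column per library. Per the submitters' processing notes, Bowtie2 2.2.5, Partek and the build WBcel235 were used, with no role given. From the equal column totals and the length steps, the deposited unit was taken to be TPM up to a constant. The stop position lay 1 base past the annotated end for 55.6% of the 23389 genes found in the Ensembl annotation, so 1 was subtracted.

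Testing was limited to genes reaching 1 in 4 or more libraries, as log2(value + 1), which understates changes of low genes. All 12 libraries entered 1 group-means model in limma 3.58.1 (trend) in R 4.3.3. Length correction was a loess of each library on log2 exonic length (span 0.5, degree 1). The whole fitted curve was subtracted, so each library was recentred as well. Exact permutation tests were two-sided, with 0.0286 the smallest p for 4 against 4. Intervals are 95%. The procedure was tested on simulated data. Python 3.11.15, pandas 2.3.3, numpy 2.4.6 and scipy 1.17.1 were used elsewhere.

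The members and lists were chosen with earlier results of these data known. Named from the lists are genes called, with or without length correction, or without overlap between groups, plus those said to be picked later. The list genes phy-4, duox-2, bli-1 and bli-2 are named too, though they were below the filter. Length correction was among the alternatives listed at the start. The ratios, and length correction with 1 library left out, were added after seeing the data. Alternatives comprised pseudocounts, filters, scalings, length, block, trend and single libraries. Of the listed genes, sec-13, tmem-39, hpx-1 and nas-34 were not analysed here.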

Additional observations from a re-analysis of the deposited data

How the results depend on the processing

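Members called stayed at 0 in all 3 comparisons under the alternatives run, each 1-library omission included, except for 1 (pdi-2) in fhod-1(tm2363) under the loess length correction and 1 (pdi-2) with the length slope as covariate. Fewer members were tested under the filter of 10. Of the members' values under alternatives, 570 kept direction and side of the threshold, 2 became called and 40 changed sign, none of them called. The counts of genes called, 154 in unc-120(st364), 671 in fhod-1(tm2363) and 253 between the mutants, became 43, 217 and 85 with the filter of 10, 345, 2239 and 660 with the loess correction, and 392, 3068 and 889 with the slope as covariate. The filter tests fewer genes, and the cause of the other shifts was not tested. Leaving out 1 library gave 109 to 171, 239 to 986 and 151 to 292, with 239 and 151 without fhod-1(tm2363) replicate 2 and 986 without unc-120(st364) replicate 2. The split of fhod-1(tm2363), 495 higher and 176 lower, was 358 and 305 with upper-quartile scaling, 319 and 310 with quantile normalization and 1094 and 1145 with loess. That between the mutants, 59 higher and 194 lower, was 83 and 160, 94 and 168, and 294 and 366.

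Replicate numbers, which run alongside a letter in the titles whose meaning is not given, did not pair all libraries: deviations of same-numbered libraries correlated from -0.65 to 0.81. The replicate 1 libraries did deviate together (0.47 to 0.61 in the 3 comparisons, each matching best with its own number), as did replicate 4 of the mutants (0.81) and replicate 3 of unc-120(st364) and wild type (0.68). After length correction these were 0.47 to 0.60, 0.66 and 0.48, and the lowest of all was -0.33. Such matching is a hint from the data and not from the design, and how much of it follows gene length was not tested. With the replicate block 188, 947 and 311 genes were called and 0 members, and pdi-2 in fhod-1(tm2363) had a limma adjusted p of 0.186.

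Uncalled fold changes that changed sign reached 0.28 when 1 library was left out. In unc-120(st364) bli-4 was 0.013 with a pseudocount of 10 and 0.00052 with the slope. In fhod-1(tm2363) dpy-31 was -0.060 with upper-quartile scaling, -0.020 with quantile normalization and -0.040 with loess. Between the mutants mlt-7 was 0.0048 with a pseudocount of 10, 0.071 with upper-quartile scaling, 0.059 with quantile normalization, 0.067 with loess and 0.015 with the slope, and tsp-15 was 0.017, 0.027 and 0.0060 with upper-quartile scaling, quantile normalization and loess. Leaving out 1 library gave, in unc-120(st364), dpy-18 from -0.069 to 0.28, phy-2 from -0.25 to 0.0083, bli-3 from -0.0024 to 0.43 and bli-4 from -0.16 to 0.28. In fhod-1(tm2363) it gave let-268 from -0.098 to 0.060, bli-3 from -0.017 to 0.25, bli-4 from -0.17 to 0.075 and dpy-31 from -0.065 to 0.12. Between the mutants it gave bli-3 from -0.13 to 0.30, bli-4 from -0.13 to 0.31 and mlt-7 from -0.15 to 0.22. The correlation of dpy-18 with phy-2 missed the threshold without the 2 farthest libraries (0.484) and after length correction (0.622), and that of bli-3 with mlt-7 after length correction (0.499). Levels under 1 estimated read limit phy-3.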
